A study of Mus musculus with 12 samples.

Results

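The Toll-like receptors are the 10 genes Tlr1, Tlr2, Tlr3, Tlr4, Tlr5, Tlr6, Tlr7, Tlr8, Tlr9 and Tlr13, taken by gene symbol from both array tables of the series; all 10 had at least 1 feature with a single symbol on each array design, out of 13356 genes that both designs hold. The 430 design held 18193 genes and the exon design 14807. RNA came from PUER cells, a mouse myeloid progenitor line without its own PU.1 that carries a fusion of PU.1, a transcription factor of myeloid and B cells, with an estrogen receptor domain. The groups compared were cells labelled 24 h, given 100 nM 4-hydroxytamoxifen (OHT), the ligand that activates the fusion, and cells labelled 0 h, with no OHT. Both carried the fusion and grew in 5 ng/ml interleukin-3 and puromycin. There were 12 arrays, 3 for each label on the Affymetrix Mouse Genome 430 2.0 design (430 arrays) and 3 for each on the Mouse Exon 1.0 ST design (exon arrays). All came from 1 cell line, and the labels do not say whether the 3 arrays of a group were separate cultures, so each p-value covers the spread of 3 perhaps technical repeats. Array medians were 5.78 to 5.87 (430) and 5.39 to 5.42 (exon) in log2 units, arrays of a group correlated at 0.998 on the 430 design (rounded) and at 0.985 to 0.989 on the exon design, and no pair of arrays held mostly identical values. The RNA of Spi1, the PU.1 gene, does not check the labels, because OHT acts on the fusion as a protein. Spi1 and Esr1, the genes of the fusion's parts, were both lower at the 24 h label on the 430 arrays (limma adjusted p under 0.05). Their median log2 change there was -1.38. On the exon arrays neither passed that test (median change 0.26). The cause was not tested.

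Toll-like receptors recognise molecules of microbes and damaged cells. Tlr1, Tlr2, Tlr4, Tlr5 and Tlr6 act at the cell surface, on lipoproteins, lipopolysaccharide and flagellin, while Tlr3, Tlr7, Tlr8, Tlr9 and Tlr13 sit in endosomes and sense nucleic acids. They signal through the adaptors MyD88 and TRIF (gene Ticam1) to NF-kB and interferon regulatory factors, and macrophages carry many of them.

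The arrays labelled 24 h were set against those labelled 0 h within each design, and the receptors called on both designs had opposite signs on them. Tlr3 and Tlr8, the receptor of double-stranded RNA and a relative that senses single-stranded RNA in humans, changed most on both. Tlr3 was 20.9-fold higher in the 430 arrays labelled 24 h and 18.8-fold lower in the exon arrays labelled 24 h; Tlr8 was 9.04-fold higher (430) and 26.7-fold lower (exon). Tlr2 and Tlr4 moved the same way as Tlr3 with smaller changes, and Tlr7, the receptor of single-stranded RNA, had the sign opposite to theirs on both designs. Each value is a deposited log2 signal, each change is the mean labelled 24 h minus the mean labelled 0 h, and a gene was called at an adjusted p under 0.05 (limma, Benjamini-Hochberg over all features of a design).

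On the 430 arrays 8 of the 10 receptors were called higher, 1 (Tlr7) was called lower and 1 (Tlr6) was not called. Of all 18193 genes there, 26.0% were called higher and 26.1% lower. On the exon arrays 1 receptor (Tlr7) was called higher, 5 (Tlr2, Tlr3, Tlr4, Tlr8 and Tlr9) were called lower and 4 (Tlr1, Tlr5, Tlr6 and Tlr13) were not called, against 19.3% of 14807 genes called higher and 10.8% lower. The receptors had a median change of 0.57 (430) and -0.40 (exon), beside 0.06 and 0.01 over all genes. Of the 10 receptors 6 were called on both designs in opposite labelled directions, beside 27.8% of the 13356 genes on both. Opposite signs were not particular to the receptors: of the 3770 genes called on both designs, 3713 (98.5%) had them. The labels of the designs conflict, and which design carries the true order was not settled here. Directions below are those of the labels, and with the exon labels exchanged each exon sign turns while its size stays.

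**Figure D1:**
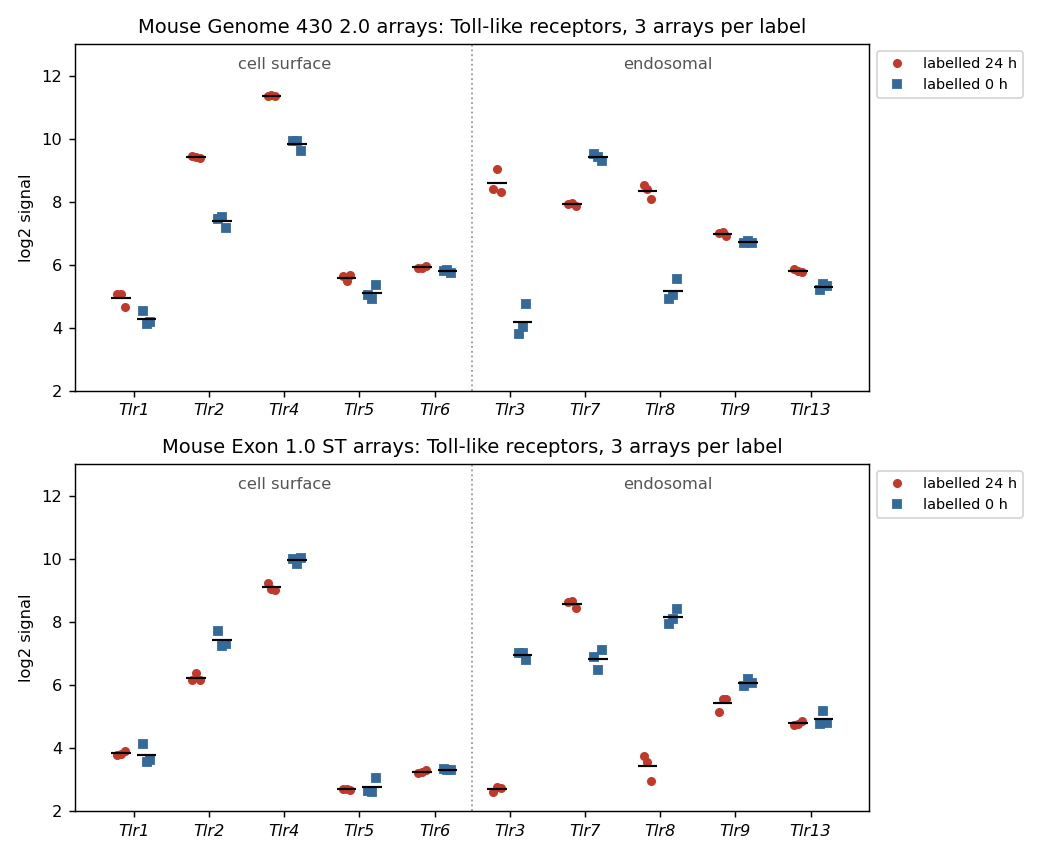
Log2 signal of each Toll-like receptor on each array, with 430 2.0 arrays above and Exon 1.0 ST arrays below; red circles are the 3 arrays labelled 24 h, blue squares the 3 labelled 0 h, and black bars the group means. Tlr3 and Tlr8 show the widest gaps, with the labels in opposite order on the designs, and Tlr7 runs against them on each.

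Called markers of cell types were counted beside the receptors. Over all genes 26.0% were called higher and 26.1% lower on the 430 arrays, and 19.3% higher and 10.8% lower on the exon arrays. No difference between a marker list and all genes was tested. Macrophage markers were called higher in 9 of 9 cases on the 430 arrays labelled 24 h, where their mean log2 level was 10.11 to 10.14 against 6.25 to 6.43 at the 0 h label, and lower in 7 of 7 cases on the exon arrays (4.88 to 5.00 at the 24 h label against 8.04 to 8.15 at the 0 h label). Myeloid progenitor markers ran the other way, with 6 of 8 lower and 1 higher on the 430 arrays and 6 of 8 higher and 1 lower on the exon arrays. Among cells that also carry Toll-like receptors, B-cell markers gave 0 calls among 5 genes on each design. Plasmacytoid dendritic cell markers gave 3 higher and 1 lower of 6 on the 430 arrays and 1 higher on the exon arrays, and conventional dendritic cell markers 3 higher of 5 and 0 of 5. T-cell markers were called higher in 3 of 5 cases on the 430 arrays and in 0 of 5 on the exon arrays. Neutrophil markers gave 1 higher and 2 lower of 6 (430) and 2 higher of 6 (exon), mast cell and basophil markers 2 higher and 2 lower of 6 and 1 higher of 5, and erythroid and megakaryocyte markers 2 higher of 5 and 0 of 5. The 430 counts of neutrophil, mast cell and basophil markers lie near the shares of all genes. The part of these cell types in the receptor changes was not tested. In bulk RNA fewer cells of a type and less RNA per cell cannot be told apart.

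Among the surface receptors, Tlr4, which recognises lipopolysaccharide, had log2 signals of 11.36, 11.37 and 11.35 in the 430 arrays labelled 24 h, against 9.91, 9.92 and 9.62 in those labelled 0 h. The 3 arrays labelled 24 h were nearly identical and lay above every array labelled 0 h. The difference was 1.54 ± 0.0887 (SE, n = 3 arrays per label; limma adjusted p = 1.46e-06), or 2.91-fold. On the exon arrays Tlr4 had 9.22, 9.04 and 9.02 at the 24 h label, against 9.98, 9.82 and 10.04 at the 0 h label, a difference of -0.85 ± 0.103 (limma adjusted p = 0.00231). The groups again did not overlap, in the reverse order.

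Tlr2, which pairs with Tlr1 or Tlr6 to recognise bacterial lipoproteins, had 9.45, 9.40 and 9.38 in the 430 arrays labelled 24 h, against 7.44, 7.51 and 7.17 in those labelled 0 h. It was 4.10-fold higher there (2.04 ± 0.0923, SE; limma adjusted p = 3.46e-07). The exon arrays gave 6.14, 6.38 and 6.14 at the 24 h label, against 7.70, 7.23 and 7.31 at the 0 h label, 2.29-fold lower (-1.19 ± 0.151; limma adjusted p = 0.00267). No array of one label reached into the range of the other on either design.

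The partners of Tlr2 changed far less. Tlr1 had 5.06, 5.08 and 4.64 on the 430 arrays labelled 24 h, against 4.53, 4.13 and 4.18 on those labelled 0 h, a difference of 0.64 ± 0.144 (limma adjusted p = 0.00593), with no overlap. On the exon arrays Tlr1 had 3.78, 3.81 and 3.90 at the 24 h label, against 4.13, 3.55 and 3.62 at the 0 h label, so the labels overlapped; the change was 0.07 ± 0.167 (limma adjusted p = 0.829). Tlr6, the neighbouring protein-coding gene of Tlr1 in the RefSeq annotation, differed by 0.12 ± 0.0636 on the 430 arrays (adjusted p = 0.145) and by -0.06 ± 0.0761 on the exon arrays (adjusted p = 0.636), and passed the limma test on neither. Tlr5, the flagellin receptor, had 5.63, 5.47 and 5.67 on the 430 arrays labelled 24 h, against 5.04, 4.91 and 5.36 on those labelled 0 h (0.49 ± 0.117, adjusted p = 0.00838), and gave -0.07 ± 0.137 on the exon arrays (limma adjusted p = 0.773). These signals were dim: on the 430 arrays Tlr1, Tlr5 and Tlr13, and on the exon arrays Tlr1, Tlr5, Tlr6 and Tlr13, lay below the array's median feature on every array. A change measured from a dim feature may be understated.

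Among the endosomal receptors, Tlr3 had 8.40, 9.04 and 8.30 in the 430 arrays labelled 24 h, against 3.81, 4.02 and 4.74 in those labelled 0 h (4.39 ± 0.257, SE, n = 3 arrays per label; limma adjusted p = 1.61e-06). Tlr3 on the exon arrays had 2.61, 2.77 and 2.73 at the 24 h label, against 7.01, 7.01 and 6.79 at the 0 h label (-4.24 ± 0.0999; limma adjusted p = 8.5e-06). On each design the low group lay more than 3 log2 units under the high one, with no array between them.

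Tlr8 had 8.54, 8.41 and 8.08 in the 430 arrays labelled 24 h, against 4.92, 5.04 and 5.53 in those labelled 0 h (3.18 ± 0.167; limma adjusted p = 8.33e-07). Its exon values were 3.74, 3.55 and 2.96 at the 24 h label, against 7.94, 8.10 and 8.42 at the 0 h label (-4.74 ± 0.233; limma adjusted p = 0.000107). The groups did not overlap on either design. The low groups of Tlr3 (means 4.19 on the 430 and 2.70 on the exon arrays) and of Tlr8 (5.17 and 3.41) lay below the array medians. These large changes may therefore be understated too. The 250 bases before the RefSeq start sites of these receptors (GRCm38.p6) are shown because they are the members that changed most; capitals mark matches to GAGGAA, the core of the purine-rich box that PU.1 binds, on either strand.
Tlr3, chr8:45410381-45410630, minus strand: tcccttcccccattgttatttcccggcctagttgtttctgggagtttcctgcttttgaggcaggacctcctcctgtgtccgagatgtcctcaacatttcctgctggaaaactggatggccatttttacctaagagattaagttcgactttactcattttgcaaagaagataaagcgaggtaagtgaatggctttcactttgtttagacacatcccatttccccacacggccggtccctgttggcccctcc
Tlr8, chrX:167264330-167264579, minus strand: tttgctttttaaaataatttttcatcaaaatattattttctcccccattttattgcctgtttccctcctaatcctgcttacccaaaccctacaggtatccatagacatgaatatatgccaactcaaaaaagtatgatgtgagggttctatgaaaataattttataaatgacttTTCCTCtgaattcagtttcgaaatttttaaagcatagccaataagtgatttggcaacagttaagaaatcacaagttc

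Tlr7, which lies next to Tlr8 among the protein-coding genes of the RefSeq annotation, had the opposite sign to it. It had 7.93, 7.97 and 7.87 in the 430 arrays labelled 24 h, against 9.50, 9.43 and 9.28 in those labelled 0 h, so it was 2.78-fold lower (-1.48 ± 0.0757; limma adjusted p = 7.19e-07). Tlr7 on the exon arrays had 8.64, 8.66 and 8.43 at the 24 h label, against 6.88, 6.48 and 7.12 at the 0 h label, 3.36-fold higher (1.75 ± 0.177; limma adjusted p = 0.00117). Every array labelled 24 h lay below every array labelled 0 h on the 430 design and above them on the exon design.

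Tlr9, the receptor of unmethylated CpG DNA, changed little on the 430 arrays, with 7.00, 7.05 and 6.90 at the 24 h label, against 6.69, 6.76 and 6.70 at the 0 h label (0.27 ± 0.0675; limma adjusted p = 0.0113). It was called lower on the exon arrays, with 5.15, 5.55 and 5.54 at the 24 h label, against 5.97, 6.17 and 6.07 at the 0 h label (-0.66 ± 0.136; limma adjusted p = 0.0161). That exon call was lost without replicate 2 of the 0 h label (adjusted p = 0.0603). Tlr13, a mouse receptor of bacterial ribosomal RNA, had 5.86, 5.80 and 5.77 on the 430 arrays labelled 24 h, against 5.20, 5.40 and 5.31 on those labelled 0 h (0.50 ± 0.0728; limma adjusted p = 0.000468). Its exon values, 4.72, 4.76 and 4.84 at the 24 h label against 4.77, 5.17 and 4.80 at the 0 h label, overlapped and gave -0.14 ± 0.129 (limma adjusted p = 0.523).

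The values of the 2 labels did not overlap for 10 of 10 receptors on the 430 design and for 6 of 10 on the exon design, beside 61.0% and 47.2% of all genes. Tlr6 on the 430 arrays is such a case without a call: its values were 5.88, 5.90 and 5.96 at the 24 h label and 5.79, 5.84 and 5.74 at the 0 h label.

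The 430 design measures Tlr3 with 2 probe sets, Tlr4 with 4 and Tlr7 with 3, while each receptor has 1 transcript cluster on the exon design. Probe sets of the same receptor agreed in sign and were all called, but not in size. For Tlr3, probe set 1422782_s_at gave the 4.39 above and 1422781_at gave 3.53 ± 0.15 (limma adjusted p = 2.32e-07). For Tlr4, 1442827_at gave 1.84 ± 0.088, 1418163_at the 1.54 above, 1418162_at 1.31 ± 0.0825 and the dim 1430695_at 0.56 ± 0.119. For Tlr7, 1422010_at gave the -1.48 above, 1419848_x_at -0.94 ± 0.0636 and 1449640_at -0.82 ± 0.079. The suffixes _s_at and _x_at mark probe sets with probes that can match other transcripts. In all, 15 of the 16 receptor probe sets on the 430 arrays were called, the exception being that of Tlr6.

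**Figure D2:**
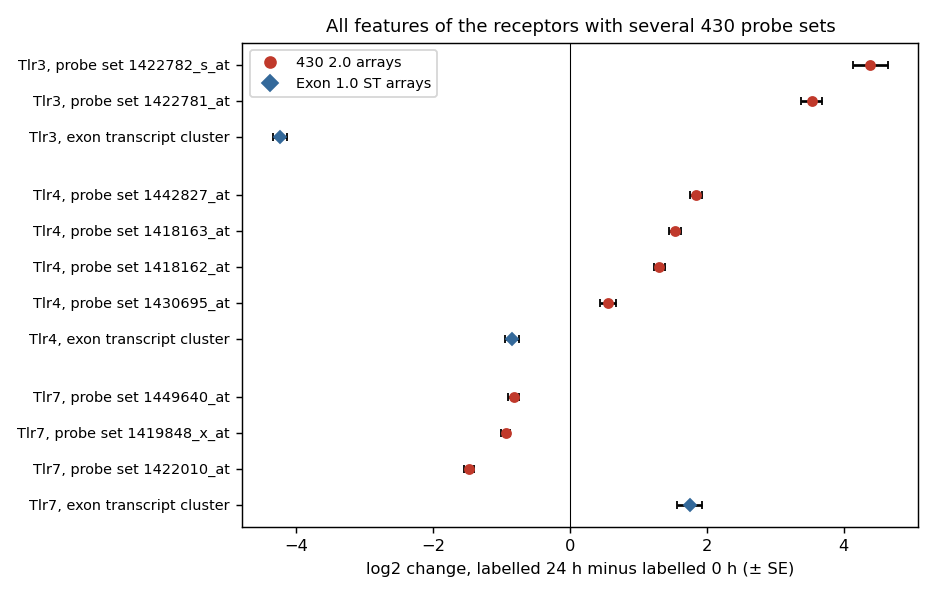
Log2 change (labelled 24 h minus labelled 0 h, with SE) of every feature of Tlr3, Tlr4 and Tlr7; red circles are 430 2.0 probe sets and blue diamonds Exon 1.0 ST transcript clusters. Within a receptor the 430 probe sets share a sign and differ in size, from 0.56 to 1.84 for Tlr4, and the exon value has the other sign.

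The difference between the designs was tested as the 430 change minus the exon change in 1 limma model over the 13356 genes on both, which assumes 1 residual spread per gene for both designs. It was called for 9 of the 10 receptors, beside 58.0% of all these genes: positive for 8, negative for Tlr7, and not called for Tlr6 (0.19 ± 0.0936, adjusted p = 0.102). The largest were Tlr3 (8.62 ± 0.297, limma adjusted p = 3.44e-12) and Tlr8 (7.92 ± 0.283, limma adjusted p = 5.3e-12). The Tlr1 difference (0.58 ± 0.22, limma adjusted p = 0.0364) was not called without replicate 2 or 3 of the 0 h label or replicate 1 or 2 of the 24 h label on the 430 arrays, nor without exon replicate 1 of the 0 h label or 1 or 2 of the 24 h label (adjusted p between 0.0609 and 0.0917). With the exon labels exchanged the same model compares the sizes of the changes for receptors whose labelled signs were opposite, which leaves out Tlr1, whose measured change was positive on both designs. Sizes then differed for Tlr2 (0.84 ± 0.171, adjusted p = 0.00324) and Tlr4 (0.69 ± 0.133, adjusted p = 0.00236), larger on the 430 arrays in this limma fit, and for Tlr8 (-1.56 ± 0.283, adjusted p = 0.00162), larger on the exon arrays. For Tlr3 the difference in size was 0.15 ± 0.297 (limma adjusted p = 0.752) and for Tlr7 0.27 ± 0.182 (limma adjusted p = 0.305), neither of them called. For Tlr7, whose 430 change was negative, the positive value means a larger measured change on the exon arrays. The low groups of Tlr3 and Tlr8 were dim, which may affect their sizes on either design. These size comparisons used the brightest 430 probe set of each gene and were not run on the others. Those gave other sizes: 3.53 for Tlr3, -0.94 and -0.82 for Tlr7, and from 0.56 to 1.84 for Tlr4. Which sizes differ between designs may therefore depend on the probe set. Whether the designs scale a change alike was not tested.

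**Figure D3:**
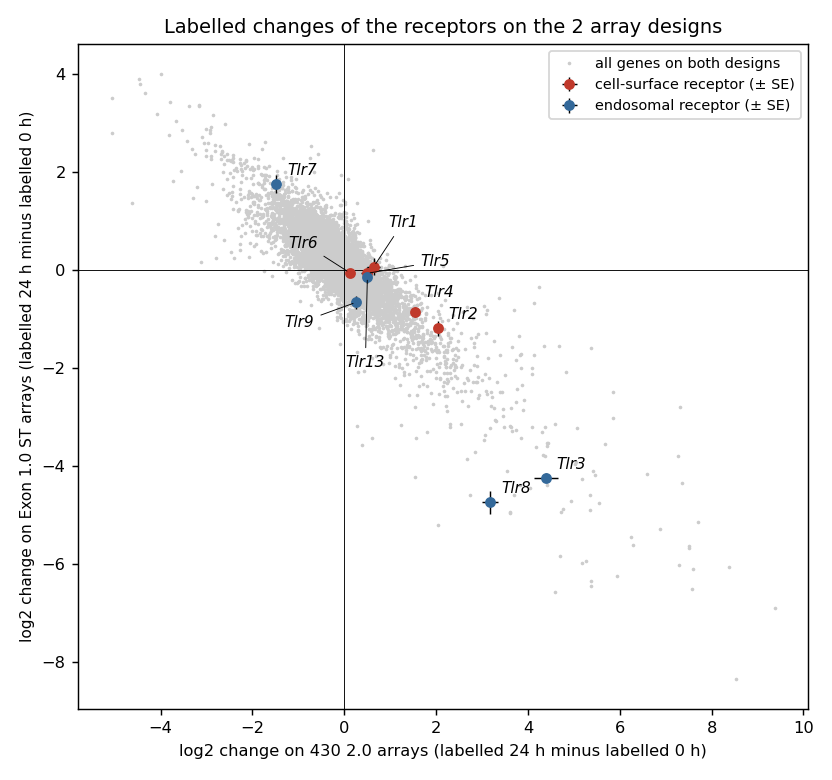
Log2 change of each gene on the 430 2.0 arrays (horizontal) and on the Exon 1.0 ST arrays (vertical), both labelled 24 h minus labelled 0 h; grey points are the 13356 genes on both designs, red points surface receptors and blue points endosomal receptors, with SE bars. Tlr3 and Tlr8 stand at lower right, Tlr7 at upper left, and Tlr1, Tlr5, Tlr6 and Tlr13 near the horizontal zero line.

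RefSeq promoter windows of 300 bases (250 before and 50 after a start site) were at hand for 8 of the receptors, in 10 windows; Tlr4 and Tlr7 had no entry. GAGGAA, searched on both strands, was found in 4 of these 10 windows, those of Tlr1, Tlr8, Tlr9 and Tlr13, beside 28.3% of all 32851 windows. In Tlr8 it lies at positions -77 to -72 from the start, on the opposite strand. The windows of Tlr2, Tlr3, Tlr5 and Tlr6 held no match to these letters. The longer GAGGAAGT, which overlaps GAGGAA, was found for Tlr1 and Tlr9 and in 3.20% of all windows. GGAANNGAA, an element bound by PU.1 together with interferon regulatory factors, was in 0 of the 10 receptor windows and in 8.24% of all, and GAAANNGAA, an interferon response element, was found for Tlr6 and Tlr8 and in 8.56% of all. The matching windows of Tlr1 and Tlr13, which have smaller changes, are set out in the same way for comparison. The other Tlr1 window, at another RefSeq start site, held no match to GAGGAA. A match is a string of letters and not a shown binding site.
Tlr1, chr5:64933559-64933808, minus strand: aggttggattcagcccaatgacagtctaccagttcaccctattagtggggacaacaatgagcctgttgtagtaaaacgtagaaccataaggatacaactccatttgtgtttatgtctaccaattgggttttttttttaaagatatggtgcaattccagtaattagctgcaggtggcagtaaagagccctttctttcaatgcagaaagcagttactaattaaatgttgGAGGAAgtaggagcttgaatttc
Tlr13, chrX:106143025-106143274, plus strand: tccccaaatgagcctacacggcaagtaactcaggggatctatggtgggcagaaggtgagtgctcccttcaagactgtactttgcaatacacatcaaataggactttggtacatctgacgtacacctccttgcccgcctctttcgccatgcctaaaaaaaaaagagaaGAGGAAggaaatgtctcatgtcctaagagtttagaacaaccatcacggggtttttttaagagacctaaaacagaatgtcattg

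By Euclidean distance over the 12 arrays, each gene centred within its design, the genes nearest to Tlr3, the receptor with the largest 430 change, were Ctss (distance 0.901), Rab3il1 (1.08), Coro2a (1.29), Anxa6 (1.30) and Cybb (1.31) among 13346 genes, the receptors left out. The centred values of Tlr3 have a length of 7.53 on this scale. Ctss, which encodes the protease cathepsin S, changed by 4.41 on the 430 and -4.39 on the exon design. A gene ranks near Tlr3 on this scale where both of its labelled changes have a like size.

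The other genes of the pathway were counted in the same way. Of 76 measured genes in 5 lists, 33 were called higher and 13 lower on the 430 arrays labelled 24 h (median change 0.13), and of 70 on the exon arrays 4 were called higher and 27 lower (median -0.19). With each array left out 30 to 32 were higher and 12 to 13 lower (430), and 3 to 5 higher and 23 to 26 lower (exon). The shares over all genes were the 26.0% higher and 26.1% lower (430) and the 19.3% higher and 10.8% lower (exon) given above, and no difference between a list and all genes was tested. Among the co-receptors, Cd14, which hands lipopolysaccharide to Tlr4, had 12.91, 12.85 and 12.95 in the 430 arrays labelled 24 h, against 10.75, 10.72 and 10.70 in those labelled 0 h, 4.52-fold higher (limma adjusted p = 2.5e-08). Ly96, the MD-2 subunit that binds lipopolysaccharide on Tlr4, had 9.68, 9.82 and 9.53 at the 24 h label, against 7.21, 7.13 and 7.03 at the 0 h label, 5.86-fold higher. In both genes the labels were far apart on this design. Lbp, the lipopolysaccharide-binding protein of serum, went the other way, with 7.53, 7.30 and 7.12 at the 24 h label, against 10.09, 10.04 and 10.26 at the 0 h label (7.03-fold lower). On the exon arrays Cd14, Ly96 and Lbp were called with turned signs (-2.28, -3.15 and 2.43). Cd180, a Tlr4-like surface protein, gave 0.09 on the 430 arrays (adjusted p = 0.487) and was called at -0.90 on the exon arrays, and Cd36 gave 0.25 and -0.19 and was called on neither. Co-receptors in all were called higher in 4 of 7 cases and lower in 1 on the 430 arrays, and lower in 3 of 6 and higher in 1 on the exon design. The small 430 changes of Ly86 (0.36), the partner of Cd180, and Tril (0.29) were called, but both calls were lost without replicate 1 of the 0 h or of the 24 h label, which in the second case left 2 co-receptors higher. The Ly86 call was also lost without replicate 3 of the 0 h or replicate 2 of the 24 h label. The Tril call was also lost without replicate 3 of the 24 h label. Cd36 gained a 430 call without replicate 1 of the 0 h label. The Ly86 and Tril calls were also both lost under quantile normalization, with array medians removed and without dim features, each of which left 2 co-receptors higher.

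The proteins that fold, move and cleave the endosomal receptors were called higher in 7 of 12 cases and lower in 1 on the 430 arrays. On the exon arrays 8 of 12 were lower and 0 higher. With each array left out 5 to 7 were lower there (5 without replicate 3 of the 0 h label). Unc93b1, which carries nucleic-acid receptors to endosomes, changed by 0.36 ± 0.0786 (limma adjusted p = 0.00526) and -0.54 ± 0.113 (limma adjusted p = 0.0168). The exon call was lost without replicate 3 of the 0 h label or replicate 1 of the 24 h label. Among the proteases, Lgmn, Ctss and Ctsl had the largest changes. On the 430 arrays labelled 24 h Lgmn, an asparaginyl endopeptidase, was 30.8-fold higher, Ctss 21.3-fold and Ctsl, cathepsin L, 2.88-fold. On the exon arrays labelled 24 h they were 26.2-fold, 21.0-fold and 1.93-fold lower. The protease gene Ctsb changed by 0.85 (430) and -0.62 (exon), though its exon call was lost when any 1 replicate of the 0 h label, or replicate 2 or 3 of the 24 h label, was left out. Ctsk gave 0.11 (adjusted p = 0.216) and -0.05 (adjusted p = 0.78) and was called on neither. Slc15a3, an endolysosomal peptide transporter, was 4.62-fold higher (430) and 3.09-fold lower (exon). The chaperone gene Cnpy3 changed by -0.31 on the 430 design (adjusted p = 0.0112) and gave 0.11 on the exon design (adjusted p = 0.632). Hsp90b1, the chaperone gp96, gave -0.02 (430) and 0.17 (exon) and was called on neither.

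Of 22 measured adaptors, kinases and ligases 7 were called higher and 4 lower on the 430 arrays, and of 20 on the exon arrays 1 higher and 5 lower. The 430 counts lie near the shares of all genes, and with any 1 array left out 6 were called higher there. Myd88, the adaptor of most Toll-like receptors, had 9.84, 9.84 and 10.01 in the 430 arrays labelled 24 h, against 10.13, 9.98 and 10.07 in those labelled 0 h, and passed the limma test on neither design (-0.16, adjusted p = 0.11, and 0.19, adjusted p = 0.354). Ticam1, the TRIF adaptor, gave -0.22 (limma adjusted p = 0.0912) and -0.21 (limma adjusted p = 0.132), the same sign on both designs. With array medians removed, Myd88 and Ticam1 were called lower on the 430 arrays. Under quantile normalization Ticam1 gained a call on the exon arrays. Tirap, the bridging adaptor of Tlr2 and Tlr4, was 2.03-fold higher (430) and 1.85-fold lower (exon), and the kinase gene Map3k8 3.18-fold higher (430) and 1.77-fold lower (exon). Pik3ap1, which links receptors to phosphoinositide 3-kinase, changed by 1.08 (430) and -0.79 (exon). Ikbke, a kinase of interferon regulatory factors, had 6.06, 5.76 and 5.89 in the 430 arrays labelled 24 h, against 9.48, 9.41 and 9.40 in those labelled 0 h, 11.5-fold lower, and was 7.21-fold higher on the exon arrays. Without replicate 3 of the 0 h label the exon count of higher genes was 2.

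Negative regulators were called higher in 5 of 14 cases and lower in 4 on the 430 arrays, while 4 of 13 were lower and 1 higher on the exon arrays. With any 1 array left out 3 were lower on the exon arrays, and 3 to 4 on the 430 arrays. The 430 counts again lie near the shares of all genes. Dusp1, a phosphatase of MAP kinases, changed by 3.74 (430) and -3.26 (exon), Tnfaip3, the ubiquitin-editing enzyme A20, by 3.51 and -2.15, and Cyld, a deubiquitinase, by 1.10 and -1.10. Zc3h12a, an RNase that degrades cytokine mRNA, changed by -1.03 and 0.70. Genes that Toll-like receptor signals can induce were called higher in 10 of 21 cases and lower in 3 on the 430 arrays, and lower in 7 of 19 and higher in 1 (Il12a, which was lower on the 430 arrays, -1.24) on the exon arrays; the exon call of Il12a was lost without exon replicate 2 of the 0 h label or any replicate of the 24 h label. The cytokine gene Il18 changed by 7.50 (430) and -5.67 (exon), the neutrophil attractant Cxcl2 by 4.42 and -3.59, the serum amyloid gene Saa3 by 1.94 and -2.74 and Tnf by 1.41 and -2.13. The cytokine genes Il6 (0.01 and 0.22), Il12b (0.10 and 0.13) and Ifnb1 (-0.06 and 0.03) and the nitric oxide synthase gene Nos2 (0.01 and 0.22), also of that list, were called on neither design.

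Other families of pattern recognition receptors gave 13 of 20 genes called higher and 2 lower on the 430 arrays, and 11 of 19 lower and 0 higher on the exon arrays. With each array left out 9 to 11 were lower on the exon arrays. Their median change was 0.91 and -0.46, beside 0.57 and -0.40 for the Toll-like receptors. The difference between the families was not tested. Ranked by the 430 change among genes called on both designs, the first were Clec4n (8.53 on the 430 and -8.34 on the exon design) and Clec7a (3.64 and -3.28), receptors of fungal sugars, the mannose receptor Mrc1 (3.07 and -2.11) and the inflammasome sensor Nlrp3 (2.30 and -3.14).

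**Figure D4:**
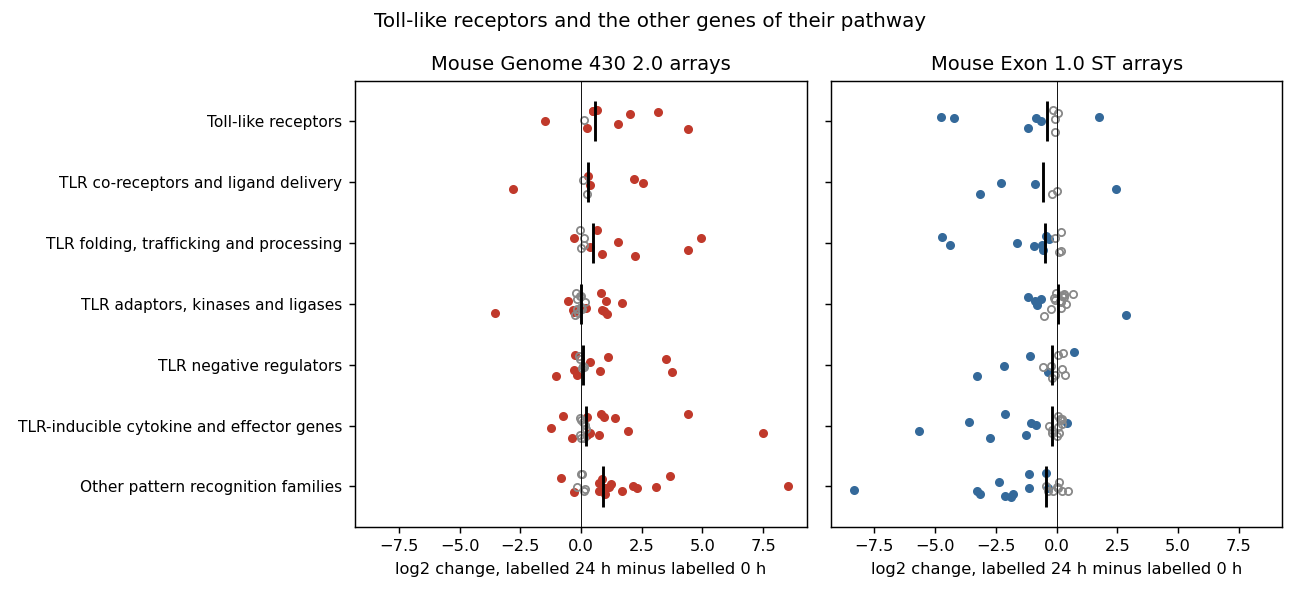
Log2 change (labelled 24 h minus labelled 0 h) of each measured gene of the Toll-like receptors, of 5 pathway lists and of other pattern recognition families, on 430 2.0 arrays (left, red) and Exon 1.0 ST arrays (right, blue); filled points were called at an adjusted p under 0.05, open grey points were not, and black bars are medians. The adaptor list centres near 0 on both designs (median -0.01 and 0.04), while the receptor list has medians of 0.57 and -0.40.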

How the data were processed

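RNA was measured on 12 Affymetrix arrays, 3 for each of 4 groups; the sample titles gave design, label and replicate number. The authors deposited log2 signals in a table for each design, made with Affymetrix Expression Console per the submitters' processing notes, which also name genome build mm8 for the exon arrays; how probes were summarized is not stated in these sources. Per the labels' protocols 300 ng of RNA was labelled for the 430 arrays and 1.5 µg, with ribosomal RNA reduced, for the exon arrays. No detection calls were used, the tables give no scan dates, and the number of arrays limits the precision.

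Leaving out 64 control probe sets, 45037 probe sets and 23238 transcript clusters were tested. Symbols came from the platform annotations, updated by Entrez identifier to RefSeq GRCm38.p6. A gene was represented by its brightest feature with 1 symbol. Limma 3.58.1 in R 4.3.3 (lmFit, eBayes) gave two-sided tests within each design, adjusted over all its features, and 1 interaction model over genes on both. Moderated standard errors are given as SE. The fits were tested on simulated data with 200 features changed by 2 on the log2 scale: 200 were recovered among 45037 features on the 430 arrays, 176 among 23238 on the exon arrays and 200 among 13356 genes for the interaction, with 8, 13 and 18 false calls. No smaller change was simulated, so recovery of changes under 2, which most receptors had, was not tested. A first criterion of 180 recovered was missed by the exon fit and was replaced, after that result was seen, by limits on the median error (0.05) and the share of false calls (10%). Alternatives were other normalization, centring, filtering, variance model, a replicate block, a fold threshold, the mean of all features, each array left out, and, for the interaction, exchanged exon labels. A planned comparison of receptor proteins was not made.

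The receptors and lists were chosen with earlier results of these data known. All 10 receptors are named with every feature. From each list the 4 members with the largest absolute 430 change among those called on both designs are named. Also named are all co-receptors, Unc93b1, Cnpy3, Hsp90b1, Myd88, Tirap and Ticam1 (Ticam2 was not analysed here) and the 5 genes nearest to Tlr3. Ctsb, Ctsk, Il12a, Il6, Il12b, Ifnb1 and Nos2 and the changes of Spi1 and Esr1 were added after their values were seen.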

Additional observations from a re-analysis of the deposited data

Results flagged for a closer look

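For 9 receptors the labelled change differed between the array designs when the difference itself was tested (limma, 430 change minus exon change, log2): Tlr3 (8.62), Tlr8 (7.92), Tlr2 (3.23), Tlr7 (-3.23), Tlr4 (2.39), Tlr9 (0.92), Tlr13 (0.64), Tlr1 (0.58) and Tlr5 (0.56). The cause was not tested.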

How the results depend on the processing

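The receptor counts kept their values when the replicate number was a block (430 arrays 8 higher and 1 lower, exon arrays 1 higher and 5 lower, difference between designs 8 positive and 1 negative). Same-numbered arrays of the 2 labels did not deviate together (r of -0.055, 0.04 and 0.132 on the 430 arrays, and of -0.026, 0.009 and -0.052 on the exon arrays). This check cannot tell whether same-numbered arrays shared a culture or batch. The block moved the exon count of lower folding and processing genes to 5, with the calls of Ctsb, Slc15a4 and Unc93b1 lost. With each array left out, the receptor counts were 8 higher and 1 lower on the 430 arrays, 1 higher and 4 to 5 lower on the exon arrays, and 7 to 8 positive and 1 negative for the difference between designs; the changes that turned sign, none of them called, ran from -0.0421 to 0.248 for Tlr1 and from -0.153 to 0.0711 for Tlr5 on the exon arrays. A required log2 change of 1 left 4 receptors higher on the 430 arrays and 3 lower on the exon arrays, and pathway counts of 16 higher and 4 lower, and of 2 higher and 15 lower. Without dim features 5 receptors were higher on the 430 arrays and 4 differences between designs were positive, since fewer receptors were tested, and 9 pathway genes were higher on the exon arrays. Tlr3 was among the receptors left out of the exon and difference tests there, as only 42.2% of exon features were dimmer than its own. The exon count of higher pathway genes was 7 under trended, robust variances and 9 under gene means, and quantile normalization gave 8 lower pathway genes on the 430 arrays; the cause was not tested. The Tlr1 difference between designs was not called with quantile normalization (adjusted p = 0.0988) or with array medians removed (0.0651). With exon labels exchanged the differences of Tlr1, Tlr2 and Tlr4 were called positive and that of Tlr8 was called negative. For Tlr1, whose labelled change was positive on both designs, this is not a difference in size. The differences of Tlr7 (0.27), Tlr8 (-1.56) and Tlr9 (-0.39) turned sign. Over all alternatives for single receptor changes, 412 values kept direction and call, 19 lost the call and 6 turned sign. Low signals limit Tlr1, Tlr5, Tlr6 and Tlr13, and in their low groups also Tlr3 and Tlr8.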
